A study of Mus musculus with 18 samples.

Results

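The libraries labelled MCE2 were compared with those labelled Control in 3T3-L1 cells, a mouse preadipocyte line of embryonic fibroblast origin, in which a hormone cocktail brings on the fat cell form. MCE stands for mitotic clonal expansion, the rounds of division that these cells pass through early in that change, and MCE2 is the second by name of 2 such groups. Both groups come from 1 cell line, and the 3 MCE2 and 3 Control polyA RNA-seq libraries are 6 of 18 in a series that also holds 3 libraries each of MCE1, Day4, Day6 and Day8. Groups were taken from the sample titles. Per the labels' protocol, cells that had been confluent for 2 days received insulin at 10 µg/mL, dexamethasone at 0.25 µM and the phosphodiesterase inhibitor IBMX at 0.5 mM in medium with 10% fetal bovine serum for 48 h, and then insulin alone at 5 µg/mL in medium changed every 2 days. The same protocol is given for all 18 libraries, Control among them, so it does not tell whether Control cells had received the cocktail. The hours at which MCE1 and MCE2 were taken are missing from the labels, as is any word on whether Control cells were still dividing. Nor is it stated that the 3 libraries of a group are separate cultures, and p-values here speak only of the spread among these libraries, which may be technical. Levels are in TPM, the abundance of a transcript scaled by its length and by the sum of its library. Tests covered the 11635 genes, of 25197 listed at one place in every library, with a TPM of 1 or more in 3 or more of these 6.

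Confluent preadipocytes stop dividing, and the cocktail sends them back into DNA synthesis and mitosis before they leave the cycle again as fat cells. Insulin, dexamethasone and the rise in cyclic AMP caused by IBMX switch on the transcription factors C/EBPβ and C/EBPδ, which lead to C/EBPα and PPARγ, the regulators of the fat cell program. Replication of DNA starts with the loading of the MCM helicase at origins in G1 and its activation in S phase, and the genes for this machinery are classic targets of E2F factors, whereas genes used later, in G2 and mitosis, are known targets of the MuvB complex with B-MYB and FOXM1.

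The 6 libraries were close within each group. Pearson's r of log2(TPM + 1) over the tested genes, given as a description, lay between 0.983 and 0.987 among MCE2 libraries, between 0.987 and 0.989 among Control libraries and between 0.867 and 0.876 across the groups. Listed TPM values summed to 876408 to 878207 in MCE2 and to 872319 to 874183 in Control, and read depth is unknown because only TPM were used. Markers of mature fat cells summed to between 1890 and 2150 TPM in MCE2, against 32.1 to 37.4 TPM in Control, mostly Fabp4 in both groups. Fabp4 averaged 1457 TPM in MCE2 and 11666 TPM at Day4. Markers of preadipocytes summed to between 499 and 585 TPM in MCE2, against 720 to 770 TPM in Control. The preadipocyte markers did not move together: by the test given below, 5 of 8 tested fell and 1 rose. Thy1, with the largest change in TPM, averaged 87.4 TPM in MCE2 and 302 TPM in Control. Pdgfra averaged 176 TPM in MCE2 and 65.4 TPM in Control. The brown fat markers Ucp1, Cidea, Elovl3, Prdm16, Zic1 and Cox8b, the leukocyte and macrophage markers Ptprc, Adgre1 and Itgam, and the epithelial markers Krt8, Krt18 and Epcam were listed at 0 in all 6 libraries. The 8 epithelial markers summed to between 0.935 and 1.95 TPM in MCE2, mostly Krt14, against 0.11 to 0.335 TPM in Control, where Krt14 was listed at 0. Macrophage markers summed to between 6.21 and 7.76 TPM in MCE2, against 18.5 to 21 TPM in Control, and bone and cartilage markers to between 82.1 and 86 TPM in MCE2, against 1180 to 1220 TPM in Control (there mostly Spp1), and the part of either in the results below was not tested.

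A gene is said below to have risen or fallen in MCE2 when limma's moderated test on log2(TPM + 1) gave an adjusted p (Benjamini-Hochberg over all 11635 genes) under 0.05. By this rule 2930 genes (25.2%) rose and 4999 (43.0%) fell, together 68.1% of those tested. The counts given below for gene groups are to be read against these shares. A gene at or near 0 TPM in 1 group passed the filter through the other group alone and could be called only in a single direction. Counts of lists that hold such genes are therefore partly set by the filter. The median log2 fold change over all genes tested was -0.20, the value against which the medians of gene groups are to be read. Scaling the libraries by median ratios moved this median up by 0.18 and changed the split to 3918 genes higher and 3949 lower, and quantile normalization gave 3850 higher and 3946 lower, so small differences in either direction depend on the scaling, whereas those described below are mostly larger than that shift. For every gene named below as having risen or fallen against Control, except Pold3, the 3 MCE2 libraries lay wholly on one side of the 3 Control libraries. A number in parentheses after TPM values is the log2 fold change. With a log2 fold change of at least 1 in size as well, 857 genes (7.37%) rose and 1720 (14.8%) fell. The values of the 3 MCE2 libraries lay wholly above or wholly below those of the 3 Control libraries in 8489 genes (73.0%). In bulk RNA of this kind, fewer cells of a type and less RNA per cell cannot be told apart.

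Ranked here were called genes with a mean of 10 TPM or more in the higher group and no overlap, without predicted or unnamed models. The 12 of these with the highest log2 fold changes held, besides Lcn2, Retn, Cidec, Gpd1, G0s2 and Plin1, 2 members of the renin-angiotensin system. Agt, the angiotensin precursor, had 1258, 1150 and 1177 TPM in MCE2, against 7.57, 13.02 and 17.5 TPM in Control. Ren1, renin, which cuts that precursor, had 101, 87.2 and 80.3 TPM in MCE2, against a listed 0 TPM in all 3 Control libraries. Igfbp4, a binding protein that holds IGF away from its receptor, had 1504, 1337 and 1397 TPM in MCE2, against 11.5, 11.9 and 14.8 TPM in Control, a log2 fold change of 6.69 (SE 0.093). None of these MCE2 libraries came near a Control library. The eosinophil ribonuclease gene Ear2 had 128, 117 and 88.1 TPM in MCE2, against 0.0330, 0 and 0 TPM in Control, and the orosomucoid genes Orm3 and Orm1 stood beside it, all of which belong to families of near-identical copies whose reads may be split or shared. At the other end, the cardiac troponin gene Tnnt2 had 0.316, 0 and 0 TPM in MCE2, against 57.03, 57.1 and 64.6 TPM in Control, and the cytokine and matrix protein gene Spp1 (osteopontin) had 17.6, 22.1 and 24.1 TPM in MCE2, against 1103, 1118 and 1134 TPM in Control.

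Among the genes ranked in this way, the 12 with the largest losses in TPM were Actb, Actg1, Vim, Tmsb4x, Tmsb10, S100a4, S100a6, Anxa1, Anxa2, Lgals1, Ptn and Ftl1. Tmsb4x, whose product thymosin beta holds actin monomers, had 112, 121 and 138 TPM in MCE2, against 2224, 2164 and 2011 TPM in Control, a log2 fold change of -4.10. Anxa1, a membrane-binding annexin, had 186, 194 and 192 TPM in MCE2, against 2109, 2058 and 2012 TPM in Control, a log2 fold change of -3.43. S100a4, a small calcium-binding protein, averaged 1883 ± 95.2 TPM in MCE2, against 4532 ± 126 TPM in Control (SD, n = 3). Its relative S100a6 averaged 874 ± 44.2 TPM in MCE2, against 2651 ± 90.8 TPM in Control (SD, n = 3). Ptn, pleiotrophin, a secreted growth factor, had 832, 999 and 918 TPM in MCE2, against 2855, 3084 and 3339 TPM in Control. Every MCE2 library was below every Control library for these 5 genes. Among the largest gains were Fabp5, a fatty acid carrier, with 1758, 1647 and 1760 TPM in MCE2, against 183, 183 and 172 TPM in Control, and Ifitm2, an interferon-induced membrane protein, with 2086, 2172 and 2144 TPM in MCE2, against 617, 669 and 660 TPM in Control.

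**Figure D1:**
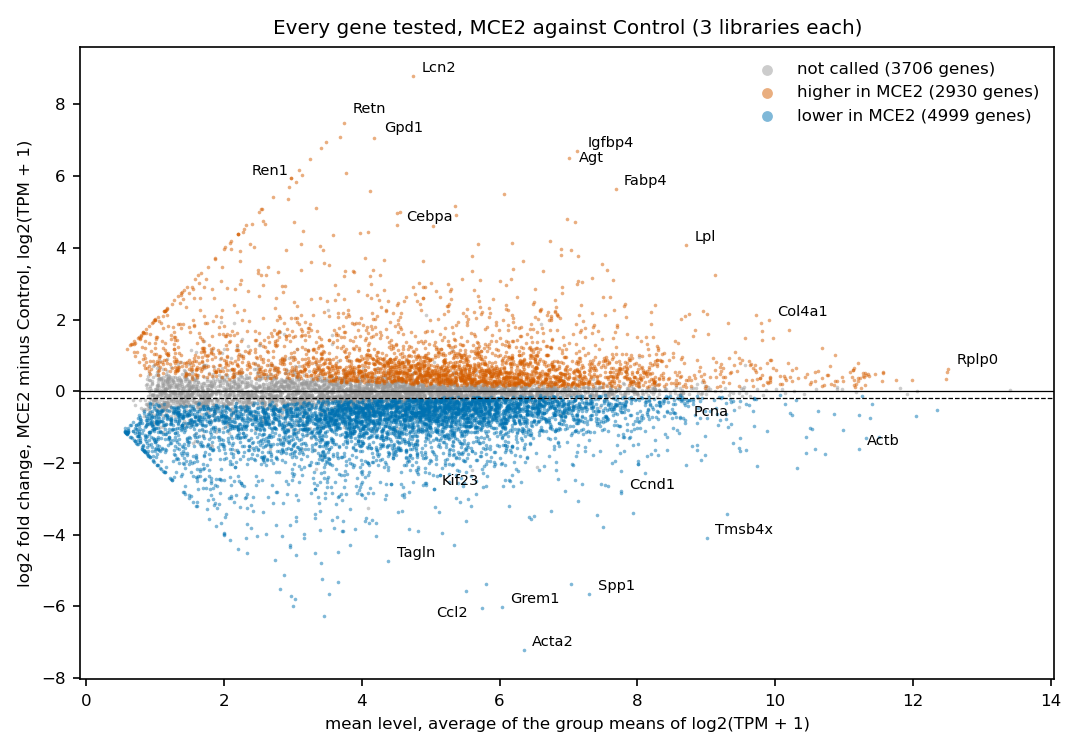
Log2 fold change of MCE2 over Control on log2(TPM + 1) against mean level for the 11635 genes tested, with 3 libraries in each group. Orange points rose (2930 genes), blue points fell (4999) and grey points were not called; the dashed line marks the median of all genes, -0.20, and the outer diagonals are genes at or near 0 TPM in one of the groups.

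Genes of DNA replication were lower in MCE2 than in Control at nearly every step. Whether Control cells were cycling was not tested, and levels of some genes in MCE1 and at Day4 are given further below. Of 63 genes tested, 55 fell and 2 rose, with a median log2 fold change of -0.83 against -0.20 over all genes. Among origin recognition and licensing factors 11 of 15 fell and 1 rose, with a median of -0.68. Mcm3, a subunit of the helicase that is loaded onto origins, had 87.7, 81.04 and 85.01 TPM in MCE2, against 181, 176 and 174 TPM in Control, a log2 fold change of -1.06 (SE 0.048) with an adjusted p of 1e-06. Mcm4 had 78.1, 86.2 and 90.4 TPM in MCE2, against 208, 196 and 195 TPM in Control, and the 6 subunits Mcm2 to Mcm7 had log2 fold changes between -1.23 and -0.57. For all 6 subunits the libraries of the 2 groups stood apart. Gmnn, geminin, which blocks renewed loading after S phase begins, fell further, with 19.9, 19.5 and 21.9 TPM in MCE2, against 55.9, 51.1 and 50.6 TPM in Control (-1.32). Cdt1, the loader that geminin holds back, had 49.2, 49.6 and 50.1 TPM in MCE2, against 90.4, 92.1 and 84.2 TPM in Control (-0.83).

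The origin recognition subunits did not move together. Orc1, the subunit that comes and goes with the cell cycle, had 6.12, 8.20 and 6.93 TPM in MCE2, against 15.96, 14.5 and 15.1 TPM in Control, a log2 fold change of -1.01 (SE 0.12). Orc2 had 29.98, 26.8 and 32.9 TPM in MCE2, against 28.1, 31.2 and 26.5 TPM in Control. Orc3 had 8.84, 9.94 and 12.2 TPM in MCE2, against 8.87, 10.9 and 11.3 TPM in Control, and neither of these passed the test. Orc5 had 34.6, 39.6 and 43.96 TPM in MCE2, against 33.6, 33.1 and 32.3 TPM in Control, a rise of 0.24 (adjusted p = 0.0482) that no longer passed when any 1 of 5 of the 6 libraries was left out, with log2 fold changes between 0.16 and 0.25. Cdc6, the loading ATPase, had 12.4, 9.86 and 12.9 TPM in MCE2, against 13.3, 14.3 and 15.3 TPM in Control, and its difference of -0.27 did not pass (adjusted p = 0.0813).

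Helicase activation and origin firing factors fell in 11 of 13 cases, with a median of -1.07 and no gene higher. Dbf4, the activating subunit of the kinase that fires origins, had 19.2, 24.6 and 21.9 TPM in MCE2, against 97.4, 81.5 and 80.6 TPM in Control, a log2 fold change of -1.94 (SE 0.11). Its catalytic partner Cdc7 had 14.02, 21.6 and 6.48 TPM in MCE2, against 15.2, 22 and 20.5 TPM in Control, which overlap, and was not called (adjusted p = 0.245), although it was lower by 0.92 and called without MCE2 replicate 2. Gins1 and Gins2, subunits of the active helicase, fell by 1.37 and 1.13, and Gins4 by 0.45.

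Of 12 polymerase and primase genes 11 fell, with a median of -1.06. Among these Pold3 lay near 0, with 1.06, 0 and 0 TPM in MCE2, against 4.03, 0.577 and 4.23 TPM in Control, which overlap (adjusted p = 0.0464). Pola1, the catalytic subunit of the polymerase that starts each strand, had 13.03, 17.5 and 16.7 TPM in MCE2, against 72.1, 62.5 and 65.7 TPM in Control, a log2 fold change of -2.03 (SE 0.12). Prim1, the primase subunit that lays the RNA primer, had 20.6, 28.3 and 27.4 TPM in MCE2, against 74.5, 66.8 and 68.2 TPM in Control (-1.43). Pole, the leading strand polymerase, had 11.7, 12.8 and 13.5 TPM in MCE2, against 40.96, 37.1 and 40.6 TPM in Control (-1.57). Pold1, its lagging strand counterpart, had 29.6, 27.4 and 30.4 TPM in MCE2, against 65.1, 66.1 and 65.6 TPM in Control (-1.14). In each of these catalytic subunits MCE2 and Control did not overlap. Pole4, a small accessory subunit, was the one that rose, by 0.64 with 12.9, 14.6 and 12.5 TPM in MCE2, against 6.47, 10.3 and 8.10 TPM in Control, a call that the fit on all 18 libraries did not make.

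The sliding clamp, clamp loader and fork proteins all fell in this comparison (15 of 15), but by less, with a median of -0.52, and only 8 were called lower after median-ratio scaling and 9 after quantile normalization. Pcna, the clamp, changed by -0.81. Rfc3, a clamp loader subunit, had 43.3, 39.02 and 39.8 TPM in MCE2, against 112, 107 and 104 TPM in Control (-1.38). Clspn, claspin, which carries the fork signal to the checkpoint kinase CHK1, had 11.2, 12.2 and 11.3 TPM in MCE2, against 29.5, 28.01 and 28.6 TPM in Control (-1.24). Factors that rebuild chromatin and copy its marks behind the fork fell in 7 of 8 cases with a median of -1.28. Chaf1b, of the CAF-1 histone chaperone, had 23.9, 24.6 and 24.8 TPM in MCE2, against 86.6, 84.9 and 82.4 TPM in Control (-1.75). Uhrf1, which brings the maintenance methylase to new DNA, had 35.9, 40.3 and 40.9 TPM in MCE2, against 126, 126 and 132 TPM in Control (-1.69). Dnmt1, that methylase, fell by 1.39.

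Transcripts of enzymes that supply DNA building blocks moved both ways. Of 10 deoxynucleotide genes 5 were lower and 2 higher, beside 43.0% lower and 25.2% higher among all genes tested. Rrm1, the large subunit of ribonucleotide reductase, had 96.9, 101 and 107 TPM in MCE2, against 222, 213 and 204 TPM in Control (-1.06). Rrm2, its cycle-dependent small subunit, had 132, 142 and 150 TPM in MCE2, against 221, 206 and 197 TPM in Control (-0.55). Rrm2b, the p53-inducible small subunit, rose by 0.53 with 6.51, 6.86 and 8.62 TPM in MCE2, against 4.57, 4.15 and 5.59 TPM in Control, so that the 2 forms of the small subunit moved in opposite directions. The call on Rrm2b was lost without MCE2 replicate 3 (0.42) or Control replicate 2 (0.45). Tyms, which makes thymidylate, fell by 0.79, and Tk1, thymidine kinase, by 0.91. Dtymk, the next kinase on that path, rose by 0.39. Of 9 genes of serine and one-carbon supply 5 fell, led by Phgdh, the first enzyme of serine synthesis, with 132, 122 and 137 TPM in MCE2, against 530, 503 and 475 TPM in Control (-1.94). Mthfd2, the mitochondrial folate enzyme, rose by 0.23.

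The same genes were set against MCE1, the first expansion group by name, in which 2316 of 11283 genes tested (20.5%) were higher in MCE2 and 3306 (29.3%) lower, together 49.8%, with a median of -0.07. In this comparison licensing factors were lower in MCE2 in 12 of 15 cases, firing factors in 13 of 13, polymerases in 10 of 12, clamp and fork proteins in 14 of 15 and deoxynucleotide genes in 8 of 10. Cdc6, not called against Control, had 12.4, 9.86 and 12.9 TPM in MCE2, against 24.7, 24.2 and 22.4 TPM in MCE1, a log2 fold change of -0.97. Rrm2 had 132, 142 and 150 TPM in MCE2, against 410, 390 and 391 TPM in MCE1, a log2 fold change of -1.49 with an adjusted p of 2.62e-06. Pcna averaged 311 TPM in MCE2, 827 TPM in MCE1, 547 TPM in Control and 163 TPM at Day4. Mcm3 averaged 84.6 TPM in MCE2, 198 TPM in MCE1, 177 TPM in Control and 26.4 TPM at Day4. For Pcna and Mcm3 MCE2 thus stood below Control and MCE1 but above Day4. Gins4 did not share this order, with means of 75.7 TPM in MCE2 and 78.2 TPM at Day4.

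The promoters of replication genes were searched for the E2F site, written as TTTGGCGC, TTTGCCGC, TTTCGCGC or TTTCCCGC on either strand, where overlapping matches on opposite strands count as separate matches. In the 250 bases before the start, taken from RefSeq on build GRCm38.p6, 611 of 32851 promoter windows held a match (1.86%), and so did 375 of the 9111 tested genes with a window (4.12%). Of 51 replication genes with a window 14 held a match: 11 of these fell, Orc3 and Cdc6 were not called and Pole4 rose. Of all 63 replication genes tested 55 fell, so a fall was no more frequent among those with a match. A match is a description of these letters and says nothing of binding. The sequences below give the last 150 bases before the start on the gene's strand, 5′ to 3′, with matches in capitals. They show the helicase subunit Mcm6 (chr1:128359706-128359855, minus strand), the origin subunit Orc1 (chr4:108579304-108579453, plus strand) and the polymerase Pola1 (chrX:93632156-93632305, minus strand), which all fell, beside Cdc6 (chr11:98908001-98908150, plus strand), which did not pass.
Mcm6: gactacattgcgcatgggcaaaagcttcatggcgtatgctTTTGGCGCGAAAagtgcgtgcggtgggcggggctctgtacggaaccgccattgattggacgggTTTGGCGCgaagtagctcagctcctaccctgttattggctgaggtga
Orc1: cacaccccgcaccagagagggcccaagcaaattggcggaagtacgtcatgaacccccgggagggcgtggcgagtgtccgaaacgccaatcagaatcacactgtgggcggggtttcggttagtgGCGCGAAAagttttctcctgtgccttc
Pola1: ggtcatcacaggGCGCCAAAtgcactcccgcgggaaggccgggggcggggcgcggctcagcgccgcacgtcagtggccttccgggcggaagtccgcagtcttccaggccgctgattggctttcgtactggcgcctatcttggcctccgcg
Cdc6: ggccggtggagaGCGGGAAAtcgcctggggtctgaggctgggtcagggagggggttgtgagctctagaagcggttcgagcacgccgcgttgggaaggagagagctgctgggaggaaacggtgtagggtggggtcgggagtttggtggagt
The Mcm6 window held 3 matches, of which 2 share bases in 1 run of capitals, and each of the other windows shown held 1. The genes shown had log2 fold changes of -2.03 for Pola1, -1.01 for Orc1, -0.68 for Mcm6 and -0.27 for Cdc6, while Orc3 and Pole4, which also held a match, had -0.0078 and 0.64.

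Mitotic genes were lower as well. Of 79 tested 72 fell and 1 rose, with a median log2 fold change of -1.21, against -0.20 over all genes. Of 24 centromere and kinetochore genes 21 fell. Ndc80, the arm of the kinetochore that grips microtubules, had 12.6, 14.97 and 16.2 TPM in MCE2, against 76.3, 78.4 and 77.5 TPM in Control, a log2 fold change of -2.34 (SE 0.10). Cenpe, a kinetochore motor, had 11.2, 14.1 and 13.5 TPM in MCE2, against 52.8, 52.1 and 55.98 TPM in Control (-1.98), and Cenpf fell by 2.00. Cenpm, a centromere subunit, went the other way with 19.6, 19.3 and 16.6 TPM in MCE2, against 15.5, 15.1 and 10.3 TPM in Control, a rise of 0.43 (adjusted p = 0.0437) that was lost without MCE2 replicate 1 (0.39), MCE2 replicate 2 (0.40) or Control replicate 3 (0.26). All 19 spindle kinases and motors fell. Kif11, the motor that pushes the spindle poles apart, had 22.2, 28.5 and 27.8 TPM in MCE2, against 89.4, 81.8 and 82.8 TPM in Control, a log2 fold change of -1.66 (SE 0.10). Kif18a, which trims microtubule ends, had 4.82, 7.62 and 6.45 TPM in MCE2, against 35.9, 34.6 and 32.9 TPM in Control (-2.30).

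Cytokinesis genes had the lowest median of the division groups, -1.86, with 8 of 9 lower. Kif23, a motor of the central spindle, had 9.96, 12.5 and 13.2 TPM in MCE2, against 89.03, 78.6 and 82.6 TPM in Control, a log2 fold change of -2.72 (SE 0.11). Anln, anillin, which ties the contractile ring to the membrane, had 24.9, 31.1 and 30.5 TPM in MCE2, against 172, 161 and 166 TPM in Control (-2.49). All 8 condensin genes fell, and 9 of 10 cohesin genes. The condensin core subunit Smc2 had 13.8, 21.2 and 11.3 TPM in MCE2, against 72.8, 47.7 and 59.4 TPM in Control (-1.92), and the cohesin core subunits Smc1a and Smc3 fell by less, 0.73 and 0.86. Of the 9 spindle checkpoint genes 7 fell, and Bub1, a checkpoint kinase, had 11.02, 12.9 and 17.8 TPM in MCE2, against 42.5, 43.2 and 46.9 TPM in Control (-1.62).

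Cell cycle regulators fell in 38 of 47 cases. Among cyclins 6 of 7 fell, and Ccnd1, the cyclin through which growth factors act in G1, had 78.1, 77.8 and 83.1 TPM in MCE2, against 603, 561 and 572 TPM in Control, a log2 fold change of -2.85 (SE 0.048). Ccnd2, a related cyclin, changed by -0.86. Ccne1, which drives entry into S phase, had 66.3, 67.5 and 67.3 TPM in MCE2, against 66.7, 64.2 and 61.9 TPM in Control and was not called (adjusted p = 0.329), while it was called higher after median-ratio scaling (0.26) and quantile normalization (0.15). Ccna2, the cyclin of S phase and G2, had 61.4, 70.2 and 73.4 TPM in MCE2, against 203, 183 and 179 TPM in Control (-1.45). The libraries of the 2 groups thus overlapped for cyclin E1, whereas the other 6 cyclins tested were lower in MCE2. Cdk1, the kinase of mitosis, had 42.7, 45.5 and 48.4 TPM in MCE2, against 96.4, 92.2 and 87 TPM in Control (-1.0). Cdk6, a G1 kinase, had 7.39, 9.11 and 8.14 TPM in MCE2, against 28.3, 23.6 and 25.2 TPM in Control (-1.54). The 3 Cdc25 phosphatases that activate these kinases fell by 0.53 (Cdc25a), 1.39 (Cdc25b) and 1.30 (Cdc25c), and so did Wee1, the kinase that opposes them, by 1.29.

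Of 6 inhibitors of these kinases tested 5 fell and 1 rose. Cdkn2c, p18 INK4C, had 101, 106 and 93.04 TPM in MCE2, against 53.5, 49.7 and 49.3 TPM in Control, a log2 fold change of 0.96 (SE 0.066) and the sole inhibitor that rose. Cdkn2b, its relative p15 INK4B, had 32.6, 33.1 and 30.6 TPM in MCE2, against 133, 135 and 140 TPM in Control (-2.05). Cdkn1b, p27, changed by -0.47 and Cdkn2a by -0.77. Of 17 E2F, pocket and DREAM genes 11 fell and 1 rose. E2f7, a repressing E2F, had 2.59, 1.56 and 3.43 TPM in MCE2, against 13.7, 21.3 and 23.4 TPM in Control (-2.54). Foxm1, the factor that drives mitotic genes, had 25.5, 27.9 and 27.02 TPM in MCE2, against 116, 107 and 113 TPM in Control (-2.02), and Rbl1, the pocket protein p107, fell by 1.41. All 7 genes of the cyclin destruction machinery fell, 4 of them after median-ratio scaling, and the largest change was in Fbxo5, the inhibitor EMI1 of the anaphase-promoting complex, with 10.3, 11.9 and 12.4 TPM in MCE2, against 65.9, 58.6 and 60.6 TPM in Control (-2.32).

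Genes of homologous recombination fell in 10 of 11 cases, and 12 of 13 Fanconi, mismatch and checkpoint genes fell. Brip1, a helicase of the Fanconi pathway, had 2.43, 3.72 and 3.20 TPM in MCE2, against 13.3, 11.6 and 12.6 TPM in Control (-1.72). Of 14 p53 targets 9 fell and 1 rose: Plk2, a polo-like kinase, had 16.2, 19.04 and 17.6 TPM in MCE2, against 106, 99.6 and 93.02 TPM in Control (-2.43), and Sesn2, a stress-induced brake on mTORC1, rose by 0.58.

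Against MCE1, kinetochore genes were lower in MCE2 in 24 of 24 cases (median -1.45), spindle kinases and motors in 19 of 19 (-1.72), cytokinesis genes in 9 of 9 (-1.76) and destruction machinery in 7 of 7 (-1.06). Ccna2 had 61.4, 70.2 and 73.4 TPM in MCE2, against 216, 225 and 230 TPM in MCE1 (-1.70). Its means were 189 TPM in Control and 22.5 TPM at Day4. Fbxo5 had 10.3, 11.9 and 12.4 TPM in MCE2, against 56.8, 62.5 and 58.2 TPM in MCE1 (-2.26).

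**Figure D2:**
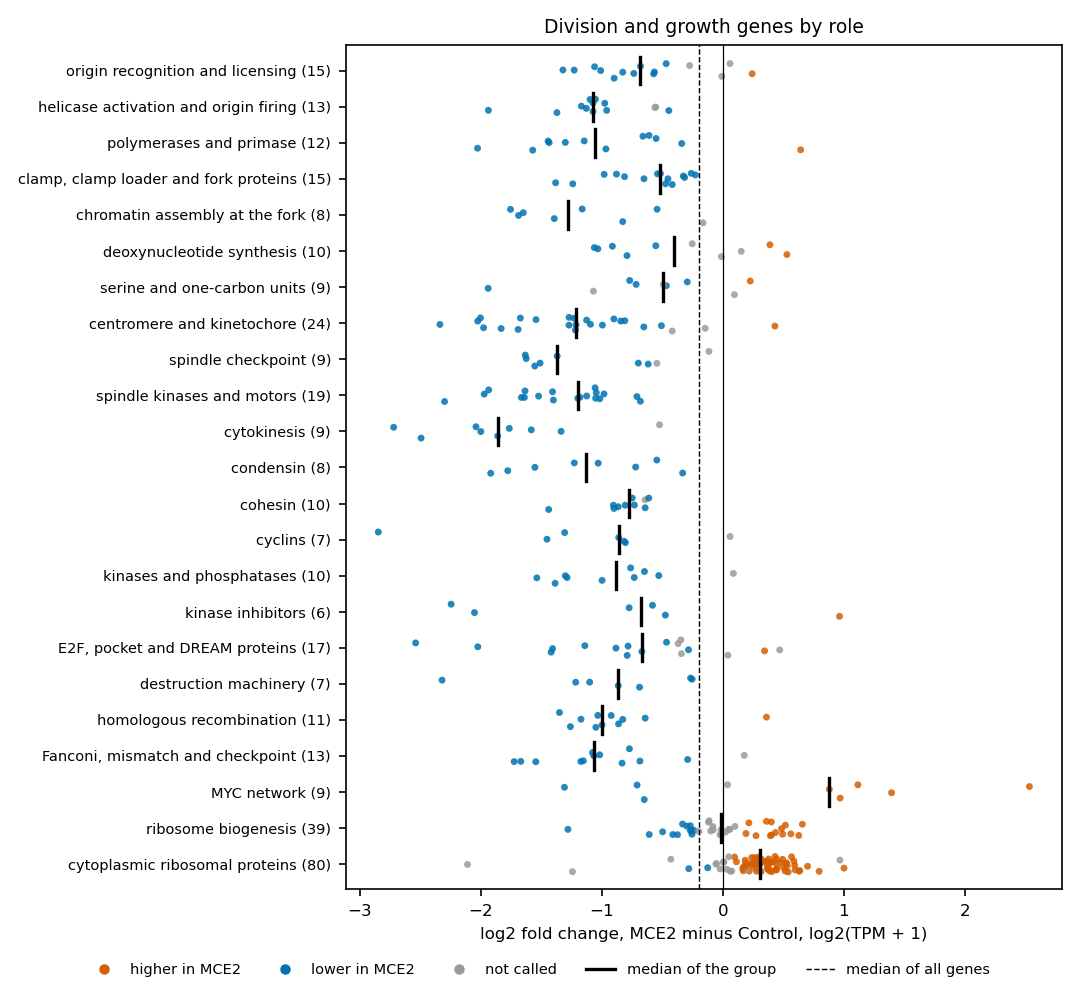
Log2 fold change of MCE2 over Control on log2(TPM + 1) for each tested gene of the division and growth groups, 1 row per role with the number of genes tested in parentheses. The black bar is the median of the role and the dashed line that of all genes, -0.20; the medians of replication and mitosis roles lie to its left, from -0.52 for the clamp and fork proteins to -1.86 for cytokinesis, and those of the MYC network and ribosomal proteins to its right.

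Mitotic promoters were searched for the CHR element TTTGAA, bound by the MuvB complexes, and for the CCAAT box, both on either strand in the same 250 bases. CHR was in 16% of the 32851 windows and in 12% of the 9111 tested genes with a window, and CCAAT in 33.8% of windows and 41.1% of tested genes. Of 70 mitotic genes with a window 21 held CHR, of which 19 fell and 2 were not called, and 41 held CCAAT, of which 37 fell. Of all 79 mitotic genes tested 72 fell, so a fall was no more frequent among those with either match. The windows shown are those of the spindle motor Kif11 (chr19:37376232-37376381, plus strand), the anaphase activators Cdc20 (chr4:118437344-118437493, minus strand) and Ube2c (chr2:164769779-164769928, plus strand), and Cdk1 (chr10:69352913-69353062, minus strand), again from RefSeq on GRCm38.p6, as the 150 bases before the start with CHR, CCAAT and, in Cdk1, the E2F site in capitals.
Kif11: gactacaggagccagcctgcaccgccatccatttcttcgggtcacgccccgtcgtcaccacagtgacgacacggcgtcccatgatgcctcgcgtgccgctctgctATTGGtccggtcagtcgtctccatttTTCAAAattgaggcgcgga
Cdc20: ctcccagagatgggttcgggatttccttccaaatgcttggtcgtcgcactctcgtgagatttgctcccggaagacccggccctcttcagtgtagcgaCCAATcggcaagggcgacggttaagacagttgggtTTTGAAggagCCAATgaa
Ube2c: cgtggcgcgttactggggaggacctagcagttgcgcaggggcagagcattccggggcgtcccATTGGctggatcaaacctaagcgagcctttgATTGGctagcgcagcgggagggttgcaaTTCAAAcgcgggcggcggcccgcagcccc
Cdk1: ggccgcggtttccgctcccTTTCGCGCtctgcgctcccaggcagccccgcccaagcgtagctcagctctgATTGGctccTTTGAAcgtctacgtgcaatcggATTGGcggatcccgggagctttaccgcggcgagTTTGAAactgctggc
Cdk1 held 5 matches in this stretch, Cdc20 and Ube2c 3 each and Kif11 2. All 4 genes fell. Cdc20 had 114, 107 and 109 TPM in MCE2, against 199, 204 and 199 TPM in Control (-0.86). Ube2c had 175, 181 and 209 TPM in MCE2, against 432, 401 and 380 TPM in Control (-1.10).

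Regulators of the fat cell program were mostly higher. Of 15 C/EBP, PPAR and partner genes 10 rose and 3 fell, with a median of 1.07. Cebpa changed by 4.64, and of the partners Rxra, the receptor that pairs with PPARγ, had 404, 368 and 376 TPM in MCE2, against 82.1, 84.7 and 94.5 TPM in Control, a log2 fold change of 2.12 (SE 0.065). Pparg itself had 41.4, 31.5 and 42.7 TPM in MCE2, against 32.96, 29.5 and 32.1 TPM in Control, and its difference of 0.27 did not pass (adjusted p = 0.0789), with 1 MCE2 library inside the Control range. It passed without that library, MCE2 replicate 2 (0.41), and after median-ratio scaling (0.47) or quantile normalization (0.46). Against MCE1, where the spread was wide, it had 41.4, 31.5 and 42.7 TPM in MCE2, against 18.9, 8.87 and 26.5 TPM in MCE1, a log2 fold change of 1.16 (adjusted p = 0.0329). Srebf1, a driver of fatty acid synthesis genes, had 131, 134 and 127 TPM in MCE2, against 31.3, 32.8 and 32.9 TPM in Control (1.98). Srebf2, the driver of cholesterol genes, had 111, 110 and 108 TPM in MCE2, against 150, 162 and 166 TPM in Control (-0.53). Ddit3 (CHOP), which blocks C/EBP factors by pairing with them, fell by 1.10.

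Krüppel-like factors were mostly lower, with 8 of 10 down and 1 up and a median of -1.09. Klf6 had 14.4, 17.4 and 17.2 TPM in MCE2, against 102, 94.6 and 104 TPM in Control (-2.55), and Klf4 fell by 1.74. Klf2, a repressor of Pparg, had 6.26, 4.81 and 5.65 TPM in MCE2, against 22.5, 20.6 and 25.7 TPM in Control (-1.86). Klf5, which helps to switch on Pparg, fell by 0.53. Klf9 alone rose, by 0.78 with 48.2, 54.7 and 51.6 TPM in MCE2, against 29.4, 28.7 and 30.3 TPM in Control. Among 17 other factors that further or hold back fat cell formation 7 rose and 7 fell. Stat5a, a factor downstream of growth hormone, had 81.1, 69.8 and 75.2 TPM in MCE2, against 21.3, 13.2 and 14.6 TPM in Control (2.16). Foxo1, which insulin shuts out of the nucleus, had 28.1, 28.97 and 30.4 TPM in MCE2, against 8.28, 7.94 and 8.59 TPM in Control (1.70). Tcf7l1, a repressor of Wnt targets, had 206, 199 and 214 TPM in MCE2, against 38.9, 46.3 and 45.1 TPM in Control (2.23). The mesenchymal factor Snai2 had 7.23, 9.01 and 7.82 TPM in MCE2, against 66.9, 61.6 and 67.3 TPM in Control (-2.88), and the preadipocyte regulators Zfp521 and Nr2f2 fell by 1.37 and 1.21.

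Genes that bring fatty acids in, join them to glycerol and store them as droplets were higher together. In fatty acid uptake and binding 8 of 11 rose and 2 fell, with a median of 3.25. Cd36, a fatty acid transporter, had 37.8, 44.7 and 42.2 TPM in MCE2, against 1.74, 1.65 and 1.87 TPM in Control, a log2 fold change of 3.95 (SE 0.11). Acsl1, which activates fatty acids by joining them to coenzyme A, had 628, 676 and 690 TPM in MCE2, against 21.6, 23.3 and 23.9 TPM in Control (4.80). The Acsl family moved both ways, since Acsl3 had 12.1, 16.9 and 13.6 TPM in MCE2, against 44.2, 43.1 and 47.3 TPM in Control (-1.60) and Acsl5 fell by 0.71. Slc27a1, another transporter, had 12.4, 10.9 and 13.6 TPM in MCE2, against a listed 0 TPM in all 3 Control libraries. In triglyceride assembly 10 of 13 rose and 2 fell, with a median of 1.89. Agpat2, the acyltransferase that is missing in a human lipodystrophy, had 550, 506 and 495 TPM in MCE2, against 30.9, 32.3 and 34.4 TPM in Control (3.95), whereas its relatives Agpat1 and Agpat3 rose by 0.32 and 0.62. Gpat3, the glycerol phosphate acyltransferase of the endoplasmic reticulum, had 70.5, 65.7 and 73.2 TPM in MCE2, against 5.00, 4.76 and 4.18 TPM in Control (3.65). Dgat1, of the last step, had 233, 246 and 237 TPM in MCE2, against 19.5, 21.9 and 23.2 TPM in Control (3.41). Lpin1, the phosphatase between these steps, rose by 2.19 with 22.9, 32.6 and 25.8 TPM in MCE2, against 5.49, 3.80 and 6.33 TPM in Control, while Lpin2 had 11.7, 13.5 and 13.3 TPM in MCE2, against 27.4, 25.03 and 30.2 TPM in Control (-1.04).

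Droplet coat and lipolysis genes rose in 10 of 12 cases and fell in 1, with a median of 3.31. Pnpla2, the lipase of triglyceride, had 183, 178 and 172 TPM in MCE2, against 11.8, 11.9 and 12.6 TPM in Control (3.77). Lipe, the lipase of diglyceride, had 241, 246 and 247 TPM in MCE2, against 5.72, 4.83 and 6.97 TPM in Control (5.18). Abhd5, the coactivator of Pnpla2, rose by 2.97. Fitm2, which helps droplets bud, had 287, 281 and 287 TPM in MCE2, against 23.5, 21.5 and 20.98 TPM in Control (3.64). The coat proteins present in most cells moved little. Plin2 had 184, 176 and 180 TPM in MCE2, against 118, 124 and 126 TPM in Control (0.55). Plin3 had 108, 103 and 107 TPM in MCE2, against 115, 139 and 140 TPM in Control, a fall of 0.30 that was not called after median-ratio scaling (-0.10). Mgll, the monoglyceride lipase, was listed at 0 in all 6 libraries.

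Genes for the synthesis of fatty acids did not move as a block, with 7 of 15 higher and 7 lower. Scd1, the desaturase of fat tissue, changed by 2.37. Slc25a1, which exports citrate from mitochondria, had 387, 357 and 356 TPM in MCE2, against 181, 182 and 185 TPM in Control (1.0). Fads2, a desaturase of polyunsaturated acids, had 80.7, 75.3 and 84.5 TPM in MCE2, against 161, 168 and 166 TPM in Control (-1.03), and its partner Fads1 fell by 0.89. Elovl6, which lengthens palmitate, fell by 0.85, and Fads3, a sphingolipid desaturase, by 1.85. Cholesterol synthesis and uptake genes were lower in 15 of 21 cases and higher in 4, with a median of -0.57. Fdft1, squalene synthase, had 42.1, 40.6 and 41.6 TPM in MCE2, against 120, 125 and 123 TPM in Control (-1.54), and Idi1, an isoprenoid enzyme upstream of it, fell by 1.36. Against MCE1 the same list had 11 genes higher and 3 lower of 21 (median 0.26), and Msmo1, a sterol demethylase, had 139, 145 and 144 TPM in MCE2, against 96.9, 97.9 and 100 TPM in MCE1 (0.53), although it was below Control by 1.27.

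Against MCE1, 10 of 12 droplet genes, 7 of 11 uptake genes and 10 of 12 assembly genes were higher in MCE2. Gpd1, which makes glycerol phosphate from a glycolytic intermediate, had 208, 206 and 209 TPM in MCE2, against 3.38, 3.42 and 4.22 TPM in MCE1, a log2 fold change of 5.48. Adipoq, adiponectin, had 60.9, 57.9 and 63.1 TPM in MCE2, against 0.622, 1.98 and 0.645 TPM in MCE1 and a listed 0 TPM in all 3 Control libraries. At Day4 its mean was 1364 TPM.

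**Figure D3:**
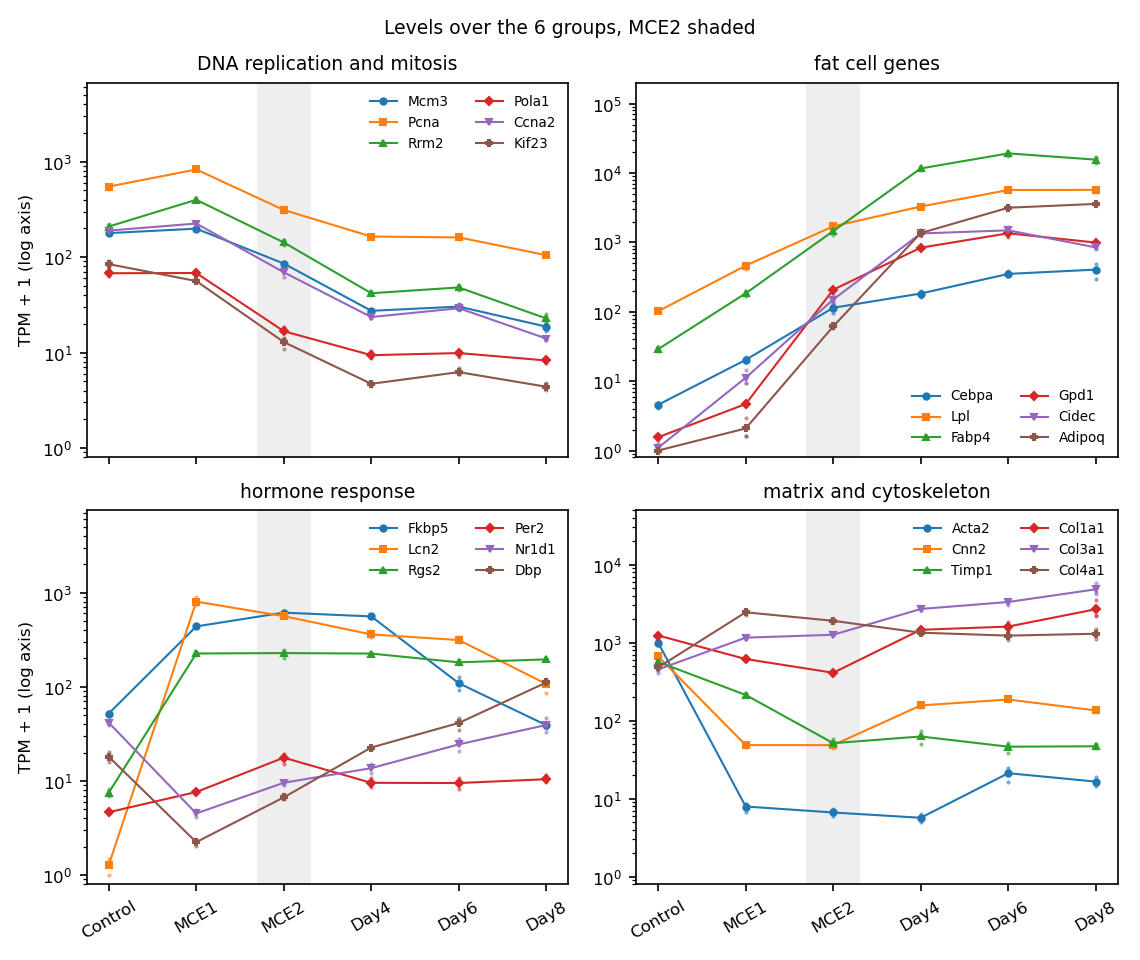
TPM plus 1 on a log axis in the 6 groups in order of differentiation, with small points for libraries, larger symbols and lines for the group means of 3 libraries, and MCE2 shaded. Replication and mitosis genes are lower in MCE2 than in Control and MCE1, fat cell genes are higher than in both, Nr1d1 and Dbp are lower than in Control but higher than in MCE1, and Acta2 and Cnn2 are low in MCE1 and MCE2 alike.

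Energy genes were higher as a group: 165 of 206 rose and 11 fell, with a median of 0.54. Of 36 complex I genes 30 rose and none fell, with a median of 0.61, and of 37 genes of complexes II to V 35 rose and none fell, with a median of 0.59. Ndufb10, a complex I subunit, had 517, 442 and 477 TPM in MCE2, against 200, 211 and 204 TPM in Control (1.22). Uqcrh, of complex III, had 412, 419 and 389 TPM in MCE2, against 199, 209 and 201 TPM in Control (1.0). Cox6a1, of complex IV, had 1409, 1208 and 1318 TPM in MCE2, against 685, 759 and 704 TPM in Control (0.87). Only 2 genes in each of these 2 sets reached a log2 fold change of 1. Mitochondrial ribosomal proteins rose in 51 of 74 cases and fell in 5, with a median of 0.33. Against MCE1, 20 of 36 complex I genes and 24 of 37 genes of complexes II to V were higher in MCE2, and 1 gene in each set was lower.

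Genes for the entry of pyruvate into mitochondria and for the citrate cycle rose in 19 of 23 cases and fell in 3. Pcx, which turns pyruvate into oxaloacetate, changed by 4.71, the largest step of the group. Mpc2, of the carrier that takes pyruvate across the inner membrane, had 506, 491 and 440 TPM in MCE2, against 80.03, 77.2 and 73.4 TPM in Control (2.62). Its partner Mpc1 had 142, 164 and 141 TPM in MCE2, against 30.2, 34.3 and 25.2 TPM in Control (2.29). Idh3a, of isocitrate dehydrogenase, rose by 1.63. Pdk4, a kinase that shuts pyruvate dehydrogenase, had 5.85, 7.56 and 8.11 TPM in MCE2, against 14.7, 15.8 and 17.4 TPM in Control (-1.06), while its relative Pdk2 had 23.7, 23.2 and 24.2 TPM in MCE2, against 5.07, 6.55 and 6.62 TPM in Control (1.81). Glucose uptake and glycolysis genes rose in 13 of 17 cases. The hexokinase genes moved apart, with Hk2, the insulin-regulated one, at 55.6, 57.8 and 69.7 TPM in MCE2, against 22.3, 19.3 and 19.8 TPM in Control (1.53) and Hk1 at 55.03, 55.3 and 60.1 TPM in MCE2, against 97.2, 110 and 107 TPM in Control (-0.87). Aldoa, aldolase, had 1488, 2151 and 1516 TPM in MCE2, against 421, 431 and 515 TPM in Control (1.90).

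Fatty acid oxidation genes rose in 14 of 17 cases and fell in 1. The 2 carnitine transferases on either side of the mitochondrial membranes moved in opposite directions. Cpt2, on the inner side, had 84.5, 88.4 and 85.8 TPM in MCE2, against 23.8, 22.5 and 23.4 TPM in Control (1.85). Cpt1a, the regulated outer one, had 40.1, 41.3 and 41.9 TPM in MCE2, against 75.8, 79.01 and 84.7 TPM in Control (-0.94). Acadvl, the dehydrogenase of long chains, rose by 1.69 and Hadh by 1.52. Peroxisome genes rose in 15 of 18 cases and none fell. Pex11a, which divides peroxisomes, had 40.5, 40.8 and 37.2 TPM in MCE2, against 5.03, 4.73 and 4.87 TPM in Control (2.78). Pex19, which brings in their membrane proteins, had 127, 120 and 125 TPM in MCE2, against 35.9, 36.3 and 41.2 TPM in Control (1.69). Cat, catalase, had 123, 126 and 129 TPM in MCE2, against 69.2, 68.8 and 72.01 TPM in Control (0.84).

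Genes for the breakdown of branched-chain amino acids were higher in 17 of 19 cases, with a median of 1.07. The gene that fell was the cytosolic form of the first enzyme of that path. Bcat1, the cytosolic transaminase, had 3.62, 4.38 and 4.49 TPM in MCE2, against 67.1, 64.8 and 62.7 TPM in Control, a log2 fold change of -3.68 (SE 0.10). Bcat2, the mitochondrial transaminase, had 193, 183 and 187 TPM in MCE2, against 25.2, 30.4 and 33.4 TPM in Control, a log2 fold change of 2.63 (SE 0.10). The libraries of MCE2 and Control were far apart in both, with Bcat1 the higher form in Control and Bcat2 the higher form in MCE2. Further along, Bckdha and Bckdhb of the dehydrogenase rose by 1.58 and 1.61, and Dbt by 1.95. Ivd, of leucine breakdown, had 143, 142 and 140 TPM in MCE2, against 36.4, 36.6 and 36.8 TPM in Control (1.92). Aldh6a1, of valine breakdown, had 78.2, 80.2 and 80.5 TPM in MCE2, against 8.14, 9.84 and 11.3 TPM in Control (2.92).

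Glucocorticoid responsive genes rose in 12 of 13 cases, with a median of 3.06. Zbtb16, a zinc finger gene induced by glucocorticoids, had 15.2, 20.2 and 16.2 TPM in MCE2, against 0.105, 0.279 and 0.229 TPM in Control (3.91). Tsc22d3 (GILZ) had 174, 190 and 187 TPM in MCE2, against 18.5, 27.1 and 18.7 TPM in Control (3.06). Hsd11b1, which makes active glucocorticoid from its inert form, had 57.2, 56.4 and 61.1 TPM in MCE2, against 0.908, 0.940 and 0.329 TPM in Control (5.12). The gene that fell was Nr3c1, the glucocorticoid receptor, with 20.7, 19.3 and 12.3 TPM in MCE2, against 24.7, 25.1 and 27.9 TPM in Control (-0.58), a call that was lost without Control replicate 3 (-0.52), after median-ratio scaling (-0.38) and after quantile normalization (-0.35). Against MCE1 the list was mixed, with 8 of 13 genes higher and 4 lower in MCE2: Ddit4 had 495, 482 and 477 TPM in MCE2, against 201, 200 and 207 TPM in MCE1 (1.25), and Dusp1, a MAP kinase phosphatase, had 93.6, 91.9 and 93.9 TPM in MCE2, against 132, 135 and 129 TPM in MCE1 (-0.50).

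Of 16 phosphodiesterase and cyclic AMP response genes 7 rose and 8 fell. Rgs2, a brake on G protein signals induced by cyclic AMP, had 203, 243 and 234 TPM in MCE2, against 5.90, 7.23 and 6.37 TPM in Control (4.92). Pde4d, which breaks down cyclic AMP, had 25.4, 26.6 and 30.4 TPM in MCE2, against 6.72, 6.46 and 6.99 TPM in Control (1.88). Nr4a1, a nuclear receptor induced by cyclic AMP, had 85.7, 89.7 and 91.5 TPM in MCE2, against 14.98, 14.4 and 17.4 TPM in Control (2.44). Nr4a2, a relative of Nr4a1, had 1.15, 0.816 and 1.16 TPM in MCE2, against 5.30, 4.66 and 6.00 TPM in Control (-1.63). Nr4a3, the third of these receptors, had 0.956, 1.20 and 1.58 TPM in MCE2, against 0.173, 0 and 0.0890 TPM in Control and did not reach the level for testing. AP-1 and EGR factors were mostly lower, with 9 of 12 down and 1 up. Egr1 had 11.3, 13.2 and 15.1 TPM in MCE2, against 35.5, 36.2 and 39.8 TPM in Control (-1.43). Ier3 had 8.14, 9.77 and 7.99 TPM in MCE2, against 62.7, 60.1 and 57.9 TPM in Control (-2.67), and Jun and Junb fell by 1.05 and 1.24.

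Of 14 circadian clock genes 5 were higher and 5 lower, beside 25.2% higher and 43.0% lower among all genes tested. Per1, a repressor of the core loop, had 62.01, 66.6 and 68.7 TPM in MCE2, against 11.8, 9.55 and 13.1 TPM in Control (2.43). Per2 had 14.3, 18.1 and 17.6 TPM in MCE2, against 3.54, 3.48 and 3.94 TPM in Control (1.92), and their partner Cry1 rose by 0.94. Nr1d1 (REV-ERBα), which represses Arntl, had 8.77, 8.03 and 8.88 TPM in MCE2, against 38.4, 41.4 and 42 TPM in Control (-2.12). Its relative Nr1d2 had 2.91, 4.06 and 3.62 TPM in MCE2, against 35.8, 32.3 and 34.4 TPM in Control (-2.96). Dbp, an output factor, had 5.87, 5.36 and 5.84 TPM in MCE2, against 14.8, 16.9 and 19.5 TPM in Control (-1.43). Arntl, an activator of the loop, had 7.75, 16.9 and 8.82 TPM in MCE2, against 13.02, 14.8 and 16.9 TPM in Control and was called only without MCE2 replicate 2 (-0.77). Its partner Clock had 7.87, 17.5 and 22.1 TPM in MCE2, against 13.97, 13.3 and 15.7 TPM in Control and was called only without MCE2 replicate 1 (0.43). Against MCE1 8 of 14 were higher and 1 lower: Nr1d1 had 8.77, 8.03 and 8.88 TPM in MCE2, against 3.89, 3.14 and 3.52 TPM in MCE1 (1.08), and Dbp had 5.87, 5.36 and 5.84 TPM in MCE2, against 1.02, 1.35 and 1.35 TPM in MCE1 (1.58).

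In the insulin receptor pathway 6 of 13 genes rose and 5 fell. The 2 adaptor genes of the receptor moved apart, with Irs2 at 70.5, 73.1 and 74.3 TPM in MCE2, against 20.4, 19.7 and 21.2 TPM in Control (1.78) and Irs1 at 7.47, 9.61 and 8.61 TPM in MCE2, against 21.9, 19.96 and 20.4 TPM in Control (-1.19). Pik3r1, the regulatory subunit of PI 3-kinase, had 108, 130 and 115 TPM in MCE2, against 25.97, 25.9 and 29.2 TPM in Control (2.08), and its catalytic partner Pik3ca fell by 0.81. Grb14, which blocks the receptor's kinase, had 3.19, 4.42 and 3.78 TPM in MCE2, against 60.7, 59.5 and 60.5 TPM in Control (-3.68), and Insr, the receptor, was not called. In the IGF system Igf2r, the clearing receptor for IGF2, had 181, 183 and 168 TPM in MCE2, against 73.4, 78.05 and 88.2 TPM in Control (1.14). Igfbp7, of the binding protein family, had 479, 492 and 462 TPM in MCE2, against 905, 905 and 882 TPM in Control (-0.91). Of 14 adipokine and receptor genes listed 10 were tested, of which 8 rose and none fell. Retn and Adipoq, listed at 0 TPM in all 3 Control libraries, passed the filter through MCE2 alone and could only be called higher. Rarres2 (chemerin) had 32.6, 37.6 and 32.4 TPM in MCE2, against 0.704, 0.716 and 1.94 TPM in Control (4.10). Adipor2, an adiponectin receptor, had 328, 337 and 333 TPM in MCE2, against 58.7, 63.8 and 63.9 TPM in Control (2.40). Lep, leptin, had 0.0930, 0 and 0 TPM in MCE2, against a listed 0 TPM in all 3 Control libraries.

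Genes of TGF-β, BMP and activin signals were lower in 16 of 27 cases and higher in 7, with a median of -0.69. The genes that BMP signals switch on in many cells were among those that fell. Id2 had 14.1, 22 and 16.5 TPM in MCE2, against 110, 98.5 and 113 TPM in Control (-2.57). Id3 had 58.8, 65.99 and 70.3 TPM in MCE2, against 264, 275 and 276 TPM in Control (-2.05) and Id4 fell by 1.66. Smad6, an inhibitory SMAD and itself a target of the pathway, had 7.81, 7.19 and 8.44 TPM in MCE2, against 51.9, 48.3 and 54.7 TPM in Control (-2.58). Smad7, the other inhibitory SMAD, had 1.85, 1.88 and 2.05 TPM in MCE2, against 34.2, 32.1 and 31.9 TPM in Control (-3.53). Grem1, an antagonist that binds BMPs, had 5.90, 7.50 and 7.93 TPM in MCE2, against 483, 515 and 576 TPM in Control (-6.02). Inhba, the activin subunit, had 2.47, 2.98 and 3.83 TPM in MCE2, against 24.7, 21.9 and 22.3 TPM in Control (-2.56). On the other side Fst, follistatin, which binds activin, had 89.8, 97.8 and 58.4 TPM in MCE2, against 19.3, 15.95 and 13.7 TPM in Control (2.24), and the TGF-β receptors Tgfbr2 and Tgfbr3 rose by 2.09 and 1.96. Smad3 had 60.4, 61.7 and 55.6 TPM in MCE2, against 29.1, 30.2 and 30.9 TPM in Control (0.95).

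Chemokines and cytokines fell in 11 of 16 cases and rose in 4, with a median of -1.30, and 7 were called lower among those that passed a stricter filter of 5 TPM. Ccl7, which draws monocytes, had 4.29, 5.74 and 6.84 TPM in MCE2, against 341, 314 and 287 TPM in Control (-5.59). Cxcl5, which draws neutrophils, had 3.24, 4.57 and 4.39 TPM in MCE2, against 40.98, 33.6 and 32.3 TPM in Control (-2.86). Csf1, the macrophage growth factor, had 31.1, 35.8 and 31.5 TPM in MCE2, against 359, 326 and 330 TPM in Control (-3.33). Cxcl12, which holds stem and immune cells in place, went the other way with 1067, 1137 and 1094 TPM in MCE2, against 840, 844 and 878 TPM in Control (0.36). Acute phase and complement genes rose in 11 of 18 cases and fell in 3. C3, the central complement protein, had 461, 450 and 439 TPM in MCE2, against 7.86, 8.67 and 10.5 TPM in Control (5.50). Hp, haptoglobin, had 35.7, 29.2 and 33.8 TPM in MCE2, against a listed 0 TPM in all 3 Control libraries, and Serpina3n, a protease inhibitor, had 43.5, 49.7 and 64.9 TPM in MCE2, against 0.710, 2.00 and 2.33 TPM in Control (4.36).

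Of 16 Wnt ligand, receptor and antagonist genes 6 rose and 7 fell, beside 25.2% higher and 43.0% lower among all genes tested. Lrp5, a Wnt coreceptor, had 598, 573 and 570 TPM in MCE2, against 58.4, 66.6 and 77.5 TPM in Control (3.10). Fzd4, a frizzled receptor, had 20.3, 20.1 and 22.1 TPM in MCE2, against 1.47, 0.950 and 1.11 TPM in Control (3.33), whereas Wnt5a fell by 0.98, Sfrp2, a secreted antagonist, had 2.69, 3.13 and 2.22 TPM in MCE2, against 26.96, 25.3 and 30.6 TPM in Control (-2.96) and Ctnnb1, β-catenin, fell by 0.61. Wnt10a and Wnt10b, ligands known to hold back fat cell formation, did not exceed 0.173 TPM in any library and were not tested. Interferon and antigen presentation genes rose in 7 of 23 cases and fell in 9, again near the shares over all genes. The heavy chains H2-K1 and H2-D1, near-identical genes whose reads may be shared, rose by 0.84 and 0.74. B2m, their common light chain, had 623, 663 and 643 TPM in MCE2, against 1348, 1396 and 1392 TPM in Control (-1.10).

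Genes of the YAP and TEAD pathway, which reads cell tension, fell in 13 of 16 cases and rose in 1, with a median of -1.29. Ccn1 (CYR61), a matrix signal protein, had 25.3, 28.6 and 22.6 TPM in MCE2, against 170, 157 and 162 TPM in Control (-2.64). Ccn2 (CTGF) had a listed 0 TPM in all 3 MCE2 libraries, against 9.07, 7.94 and 7.50 TPM in Control, and Ankrd1, a nuclear protein induced by tension, had a listed 0 TPM in all 3 MCE2 libraries, against 8.78, 6.61 and 5.52 TPM in Control. Thbs1, thrombospondin, had 10.1, 16.7 and 9.75 TPM in MCE2, against 164, 143 and 167 TPM in Control (-3.63). Ajuba, a LIM protein of cell junctions, had 6.11, 4.84 and 3.74 TPM in MCE2, against 47.3, 44.1 and 44.1 TPM in Control (-2.99). Tead4 rose by 0.94, and Tead2 had 49.6, 47.1 and 48.8 TPM in MCE2, against 146, 136 and 128 TPM in Control (-1.47). Against MCE1 5 of 14 tested were lower, 1 was higher and 8 were not called, and Ajuba differed by -0.042 between MCE2 and MCE1.

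**Figure D4:**
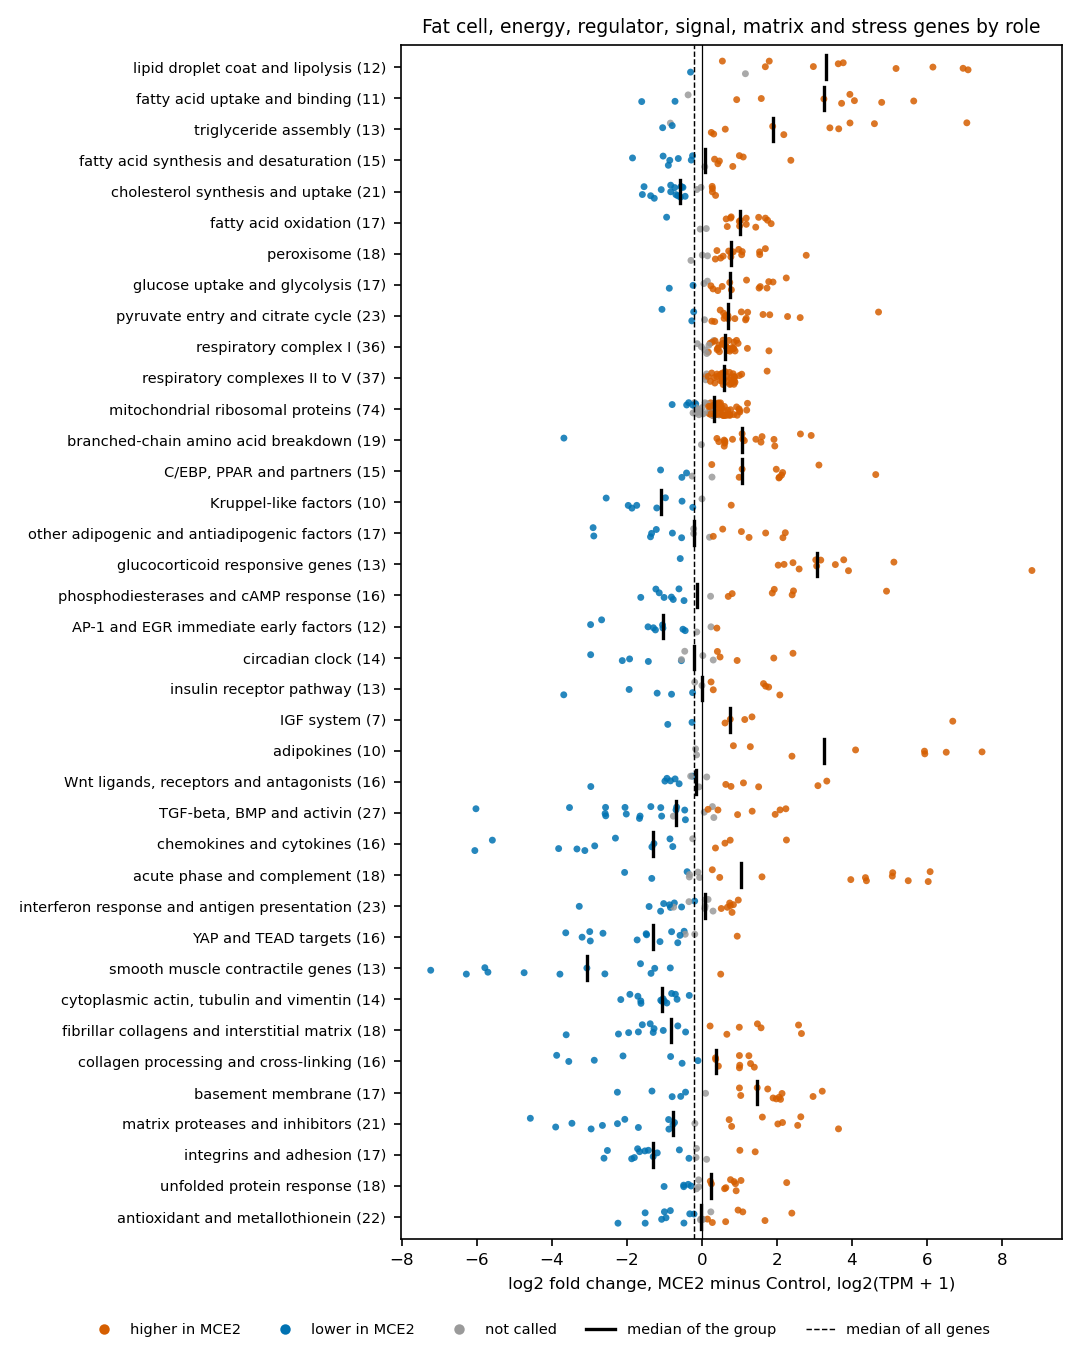
Log2 fold change of MCE2 over Control on log2(TPM + 1) for each tested gene of the fat cell, energy, regulator, signal, matrix and stress groups, 1 row per role with the number of genes tested in parentheses. Black bars are role medians and the dashed line is the median of all genes, -0.20; the bars run from 3.31 for lipid droplet genes to -3.07 for smooth muscle contractile genes.

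Contractile genes of the smooth muscle kind had the lowest median of all roles described here, -3.07, with 12 of 13 lower. Of 17 genes listed 4 were not tested. Myl9, with 0.371, 0.355 and 0 TPM in MCE2, against 102, 91.2 and 90.8 TPM in Control, passed the filter through Control alone. Only a fall could be called for such a gene. Acta2, smooth muscle actin, changed by -7.23. Cnn2, a calponin that steadies actin fibres, had 49.3, 43.1 and 50.4 TPM in MCE2, against 687, 658 and 655 TPM in Control, a log2 fold change of -3.78 (SE 0.065). Cald1, caldesmon, had 43.5, 49.1 and 50.05 TPM in MCE2, against 478, 345 and 402 TPM in Control (-3.07). Tpm1, tropomyosin, had 53.2, 58.4 and 64.5 TPM in MCE2, against 381, 349 and 341 TPM in Control (-2.59). Mylk, the kinase that starts contraction, was the exception and rose by 0.50 with 11.1, 12.4 and 12.8 TPM in MCE2, against 7.03, 8.10 and 9.79 TPM in Control. Against MCE1 only 9 of the list passed the filter, so this count covers fewer genes than that against Control. Of these 9, 3 were lower and 1 higher. Cnn2 had 49.3, 43.1 and 50.4 TPM in MCE2, against 51.1, 46.4 and 45.1 TPM in MCE1, which overlap. A CArG box, the site of serum response factor, taken as CC, 6 bases of A or T, and GG on either strand, was in 1.47% of all windows and 1.23% of tested genes with a window, and in 2 of 11 contractile genes with a window, Cnn2 and Myl9. The window of Cnn2 (chr10:79988450-79988599, plus strand, RefSeq on GRCm38.p6, 150 bases before the start) is shown with its match in capitals because its fall was the largest in TPM of the 2.
Cnn2: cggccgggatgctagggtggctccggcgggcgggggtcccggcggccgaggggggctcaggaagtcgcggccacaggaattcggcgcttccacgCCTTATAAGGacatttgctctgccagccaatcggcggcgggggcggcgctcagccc
Srf, the gene of that factor, had 42.8, 39.7 and 42.3 TPM in MCE2, against 61.2, 57.3 and 59.6 TPM in Control (-0.50).

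All 14 cytoplasmic actin, tubulin, vimentin, lamin and filamin genes tested fell, with a median of -1.05. Actb, cytoplasmic actin, had 1363, 1261 and 1440 TPM in MCE2, against 4383, 4083 and 4052 TPM in Control (-1.62). Flna, filamin, which crosslinks actin, had 236, 250 and 263 TPM in MCE2, against 934, 924 and 977 TPM in Control (-1.92). Tuba1a and Tubb5, tubulins, fell by 1.63 and 1.07, and Lmna, of the nuclear lamina, by 1.0. Integrin and adhesion genes fell in 12 of 17 cases and rose in 2. Zyx, zyxin, which sits where actin meets adhesions, had 71.3, 77.5 and 72.2 TPM in MCE2, against 493, 443 and 429 TPM in Control (-2.61). Itgav, an integrin chain for vitronectin, had 30.3, 34.2 and 33.6 TPM in MCE2, against 125, 116 and 126 TPM in Control (-1.87), and its partner Itgb3 rose by 1.01 with 51.7, 50.6 and 52.1 TPM in MCE2, against 21.9, 24.2 and 29.3 TPM in Control. Vcl and Tln1, which link integrins to actin, fell by 1.42 and 1.52.

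Matrix genes moved in both directions. Of 18 fibrillar collagen and interstitial matrix genes 7 rose and 11 fell. Col1a2, of type I collagen, had 930, 852 and 902 TPM in MCE2, against 2075, 2114 and 2309 TPM in Control (-1.27). Fbn1, fibrillin, had 26.6, 27.7 and 28.9 TPM in MCE2, against 110, 106 and 115 TPM in Control (-1.95). Fn1, fibronectin, changed by -1.03. Col3a1, of type III collagen, had 1244, 1246 and 1295 TPM in MCE2, against 403, 449 and 506 TPM in Control (1.48). Of the type V chains Col5a3 had 138, 145 and 151 TPM in MCE2, against 20.7, 22.1 and 27.9 TPM in Control (2.58). Col5a1 had 339, 338 and 332 TPM in MCE2, against 160, 164 and 180 TPM in Control (1.0), whereas Col5a2 had 168, 164 and 168 TPM in MCE2, against 262, 253 and 265 TPM in Control (-0.64).

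Basement membrane genes were mostly higher, with 11 of 17 up and 5 down and a median of 1.48. Col4a1, of the type IV network that surrounds each fat cell, had 1970, 1850 and 1898 TPM in MCE2, against 466, 468 and 509 TPM in Control, a log2 fold change of 1.98 (SE 0.048), and its partner Col4a2 had 1259, 1221 and 1225 TPM in MCE2, against 322, 323 and 345 TPM in Control (1.90). Col6a2 and Col6a3 rose by 2.14 and 2.10. Nid2, nidogen, had 51.8, 53.6 and 50.1 TPM in MCE2, against 4.27, 4.55 and 5.35 TPM in Control (3.21). Nid1 had 394, 431 and 417 TPM in MCE2, against 605, 588 and 644 TPM in Control (-0.56), so the 2 nidogens moved apart. Lama4, the laminin chain of fat tissue and vessels, had 184, 186 and 186 TPM in MCE2, against 43.7, 40.5 and 47.1 TPM in Control (2.06), and Lamb2 fell by 1.33. Against MCE1 the group was more often lower than higher in MCE2 (9 and 5 of 16), and Col4a1 had 1970, 1850 and 1898 TPM in MCE2, against 2623, 2438 and 2289 TPM in MCE1 (-0.36).

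Enzymes that fold and crosslink collagen rose in 9 of 16 cases and fell in 7. Within the lysyl oxidase family Loxl1, of elastic fibres, had 496, 476 and 471 TPM in MCE2, against 200, 194 and 209 TPM in Control (1.25). Loxl4 had 3.39, 4.56 and 3.73 TPM in MCE2, against 56.04, 55.2 and 56.7 TPM in Control (-3.55), while Lox fell by 0.83 and Loxl3 by 2.87. Among prolyl hydroxylases P4ha1 rose by 1.0, and P4ha3 had 1.13, 2.07 and 2.06 TPM in MCE2, against 38.2, 35.8 and 42.5 TPM in Control (-3.87). Of 21 matrix proteases and inhibitors 8 rose and 12 fell. Mmp2, gelatinase A, had 955, 895 and 851 TPM in MCE2, against 170, 202 and 239 TPM in Control (2.15). Adamts12, of a family of secreted proteases, had 99.8, 113 and 97.8 TPM in MCE2, against 6.59, 7.36 and 8.16 TPM in Control (3.64). Its relative Adamts1 had 425, 475 and 454 TPM in MCE2, against 72.04, 70.1 and 72.5 TPM in Control (2.64). Of the TIMP inhibitors of these enzymes Timp1, Timp2 and Timp3 fell and Timp4 rose. Timp1 had 45.99, 57.5 and 47.9 TPM in MCE2, against 579, 592 and 524 TPM in Control (-3.46). Timp3 had 0.452, 0.939 and 0.695 TPM in MCE2, against 40.1, 36.4 and 40.8 TPM in Control (-4.57) and Timp2 fell by 0.89. Timp4, at a much lower level, had 1.70, 2.16 and 2.80 TPM in MCE2, against 0, 0 and 0.128 TPM in Control (1.61). Plaur, the urokinase receptor, had 6.18, 5.83 and 6.88 TPM in MCE2, against 114, 105 and 104 TPM in Control (-3.90).

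**Figure D5:**
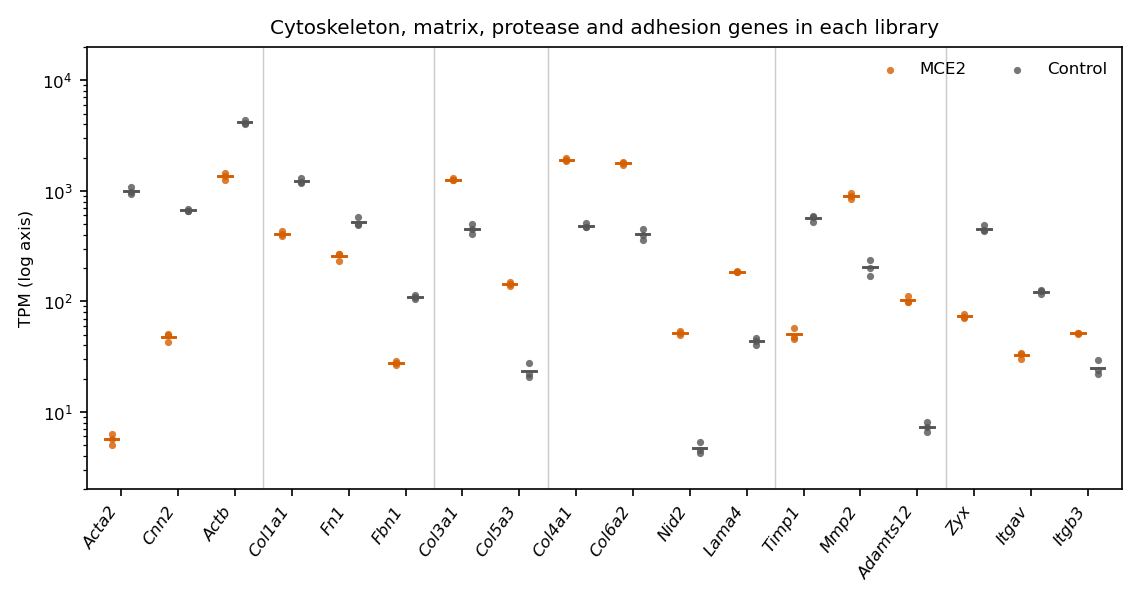
TPM on a log axis of 18 cytoskeleton, matrix, protease and adhesion genes in each MCE2 library (orange, left of each pair) and each Control library (grey, right), with short bars at the means of 3 libraries. Col1a1, Fn1, Fbn1, Timp1 and the actin genes are lower in MCE2, and Col3a1, Col5a3, Col4a1, Col6a2, Nid2, Lama4, Mmp2 and Adamts12 are higher, and in none of the 18 do the libraries of the 2 groups overlap.

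In growth genes, 5 of the 9 tested members of the MYC network rose and 3 fell. Myc had 98.2, 115 and 114 TPM in MCE2, against 42.9, 42.02 and 37.6 TPM in Control (1.39), and some of its antagonists rose too. Mxi1 had 24.5, 27.3 and 34.1 TPM in MCE2, against 3.63, 4.30 and 4.31 TPM in Control (2.53). Mxd4 had 212, 235 and 213 TPM in MCE2, against 105, 120 and 134 TPM in Control (0.88) and Mxd1 rose by 1.12, while Mxd3, an antagonist tied to the cell cycle, had 10.4, 11.5 and 11.9 TPM in MCE2, against 30.5, 27.6 and 29.9 TPM in Control (-1.31). Mnt and Mga, repressors that compete for the partner MAX, fell by 0.71 and 0.65. Ribosome biogenesis, a known group of MYC targets, was divided, with 14 of 39 genes higher and 12 lower and a median of -0.02. Npm1, nucleophosmin, had 925, 980 and 992 TPM in MCE2, against 1508, 1433 and 1475 TPM in Control (-0.61). Bop1, which processes the RNA of the large subunit, had 142, 137 and 139 TPM in MCE2, against 92.6, 91.1 and 86.3 TPM in Control (0.63). Cytoplasmic ribosomal proteins rose in 63 of 80 cases and fell in 2, by a median of 0.30, and many have processed copies that can share reads. Rplp0 had 7657, 6937 and 7114 TPM in MCE2, against 4651, 4763 and 4594 TPM in Control (0.63).

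In the stress lists, 10 of 18 genes of the unfolded protein response rose and 5 fell. Hspa5 (BiP), the main chaperone of the endoplasmic reticulum, had 860, 892 and 903 TPM in MCE2, against 455, 485 and 467 TPM in Control (0.92), and Dnajb9 rose by 1.04, while Herpud1, of the degradation branch, had 38.4, 29.05 and 37.3 TPM in MCE2, against 70.5, 70.1 and 71.2 TPM in Control (-1.01). Of 22 antioxidant and metallothionein genes 7 rose and 10 fell, near the 25.2% and 43.0% of all genes tested. Mt2, a metallothionein, which glucocorticoids and metals induce, had 623, 681 and 796 TPM in MCE2, against 123, 137 and 134 TPM in Control (2.40). Mt1 had 1489, 1422 and 1940 TPM in MCE2, against 451, 519 and 527 TPM in Control (1.68). Nqo1, a quinone reductase and known target of NRF2, had 33.3, 34.8 and 35.1 TPM in MCE2, against 162, 170 and 166 TPM in Control (-2.24). Hmox1, which breaks down haem, had 85.03, 75.5 and 86.5 TPM in MCE2, against 272, 223 and 217 TPM in Control (-1.51), and the glutathione genes Gclm, Gsta4 and Gstm1 fell by 1.0, 1.07 and 1.51.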

How the data were processed

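PolyA RNA of 3T3-L1 cells was sequenced, and the authors deposited 1 table of TPM per library, made with StringTie after FastQC, cutadapt and HISAT2 on build mm9, per the submitters' processing notes; versions and strand settings were not given in the sources used here. TPM hold no read depth, so no counting interval could be given, and near-identical genes may share reads.

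From these TPM, log2(TPM + 1) was computed and genes that reached 1 TPM in 3 or more of the 6 libraries compared were tested with limma 3.58.1 (R 4.3.3; eBayes with the trend and robust options, Benjamini-Hochberg over all genes tested, called under 0.05). A fold change on this scale understates that of genes near 0. Groups came from the sample titles. MCE2 was compared with Control and, in its own fit, with MCE1; both comparisons hold the same MCE2 libraries. Of 25209 gene names, 12 that lay at another place in some library were dropped. The model was tested on simulated data.

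Genes were named by role. In roles of 16 or fewer genes tested any member could be named; in larger ones up to 8 called genes in each direction with the largest fold change, no overlap and a mean in the higher group of 10 TPM or more, and up to 4 not called. Over all genes, the 12 called genes highest and lowest in fold change and in TPM difference could be named. These too needed no overlap and a mean in the higher group of 10 TPM or more, and predicted or unnamed models were left out. Timp4 and Col5a2 lie outside this rule and were chosen after their values were seen. Some members of the lists are counted but their values are not reported here. The comparison, the gene lists and the genes were chosen with earlier results of these data known. Promoters came from RefSeq on GRCm38.p6, matched by symbol, and no coordinate was converted between builds. Alternatives covered the pseudocount, the filter, scaling, the fit, weights, a fold threshold, a replicate block and leaving out each library.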

Additional observations from a re-analysis of the deposited data

How the results depend on the processing

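TPM without counts limit what can be said of genes near 0, and the 3 libraries of a group may not be separate cultures. Of the alternatives tried, only the added fold threshold, scaling and the stricter filter moved a count of calls by over 1.5 times.

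With a log2 fold change of at least 1 required as well, MCE2 against Control kept 857 genes higher and 1720 lower, and MCE2 against MCE1 365 higher and 614 lower. Under that rule the genes called lower were 4 in licensing, 6 in polymerases, 2 in clamp and fork proteins, 2 in deoxynucleotide synthesis, 1 in serine and one-carbon units, 5 in condensin, 1 in cohesin, 3 in cyclins, 4 in kinases and phosphatases, 2 in kinase inhibitors, 5 in E2F and DREAM, 3 in destruction machinery, 5 in homologous recombination, 3 in p53 targets, 5 in cholesterol, 5 in Krüppel-like factors, 4 in cyclic AMP response, 1 in Wnt, 4 in interferon response, 8 in actin and tubulin and 4 in antioxidant genes. Those called higher were 3 in the MYC network, 0 in ribosome biogenesis, 1 in ribosomal proteins, 3 in fatty acid synthesis, 9 in fatty acid oxidation, 6 in peroxisome, 7 in glycolysis, 9 in pyruvate and citrate cycle, 2 in complex I, 2 in complexes II to V, 4 in mitochondrial ribosomal proteins, 10 in branched-chain breakdown, 2 in clock, 3 in the IGF system and 2 in the unfolded protein response. The threshold itself removes the smaller differences.

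Median-ratio scaling left 8 clamp and fork genes and 4 destruction genes lower, and quantile normalization 9 clamp and fork genes, as both raise the median fold change by about 0.18. The 5 TPM filter left 7 chemokines lower because fewer were tested. Scaling also turned the split of calls in MCE2 against MCE1 to 2800 higher and 2834 lower by median ratios, and to 2966 higher and 2808 lower by quantiles. Without a filter 3060 genes were higher and 5422 lower of 15818, with a pseudocount of 0.1 they were 2904 and 4940, in the fit on all 18 libraries 2880 and 4892, with array weights 3096 and 5120 and with plain eBayes 2864 and 4922. Leaving out each library in turn gave 2673 to 2910 genes higher and 4481 to 5042 lower against Control, and 1898 to 2257 higher and 2609 to 3407 lower against MCE1. The calls on Cdkn1a and Pold3 under these settings are not given here. Of the other named genes, 12 crossed the threshold under some setting other than the fold threshold. Each is noted where it is described except Rplp1, which was not called after quantile normalization, and none changed sign while called. The cause of other changes was not tested.

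Same-numbered libraries of MCE2 and Control did not deviate together (r = -0.0252, -0.0345 and 0.0462), and 2 of the 3 MCE2 libraries correlated best with another number, so the numbers were not taken as pairs. With the replicate block 2850 genes were higher and 4841 lower against Control, and 2241 higher and 3233 lower against MCE1.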

Other observations

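Some genes stood at an extreme in MCE2 among all 6 groups of the series. In 416 genes with a mean of 10 TPM or more in MCE2, all 3 MCE2 libraries lay above the other 15. In 511 genes with 1 TPM or more in each of the other 15, all 3 lay below them. These floors differ, so the counts above and below cannot be set against each other. With the same floors the counts were 1874 above and 1333 below for Control, 979 and 730 for MCE1, 293 and 200 for Day4, 119 and 43 for Day6, and 815 and 782 for Day8. The examples given here were chosen after their values were seen and no test was made on them. Ren1, renin, averaged 89.4 TPM in MCE2, 12.4 TPM in MCE1 and 23.6 TPM at Day4. Slc43a2, a transporter of large neutral amino acids, averaged 45.9 TPM in MCE2 and between 3.53 TPM (Control) and 11.4 TPM (Day4) in the other groups. Krt13, a keratin of stratified epithelium, averaged 130 TPM in MCE2, 51.3 TPM in MCE1, 8.51 TPM at Day4 and 3.21 TPM in Control. Krt14, another such keratin, had between 0.935 and 1.95 TPM in MCE2, against a listed 0 TPM in all 3 Control libraries, and Krt8, Krt18 and Epcam were listed at 0 in MCE2 and Control. Krt15 averaged 39.4 TPM in MCE2 and 3.39 TPM in Control. Ucp2, a mitochondrial carrier, averaged 827 TPM in MCE2, and its means in the other groups lay far lower, with 349 TPM in MCE1 and 253 TPM in Control. Fgf10, a growth factor of the fat pad, averaged 129 TPM in MCE2 and 13.9 TPM in Control, and Notch1, a receptor for signals between neighbouring cells, averaged 57.9 TPM in MCE2 and 5.25 TPM in Control. At the low end, Pdpn, podoplanin, averaged 3.55 TPM in MCE2 and 73.5 TPM in Control, and Pltp, a phospholipid carrier of plasma, averaged 12.6 TPM in MCE2 and 57.2 TPM in Control.

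Mdm2, the ubiquitin ligase that holds p53 in check, was among the most abundant transcripts of every group. It had 1773, 2273 and 2128 TPM in MCE2, against 3487, 3244 and 3512 TPM in Control, ranking 49 in MCE2 and 14 in Control by mean TPM. Slc35e3, which lies next to it at chr10:117170734-117183414 on mm9 (Mdm2 at chr10:117125931-117147814), averaged 1336 TPM in MCE2 and 1402 TPM in Control. The genes on either side of this pair were far lower, with Cpm at 2.84 TPM in MCE2 and 0.518 TPM in Control, and Nup107 at 39.3 TPM in MCE2 and 75.5 TPM in Control.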
